A study of Drosophila melanogaster with 2 samples.

Results

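The proteasome subunit genes of Drosophila melanogaster were examined for binding by Araucan, an Iroquois family homeodomain protein, in whole embryos. They were taken as the protein-coding genes whose symbol begins Prosalpha or Prosbeta, or Rpn or Rpt followed by a digit, which gave 48 of 13945 protein-coding genes. The embryos were 0 to 24 h old, carried a transgene for an ara-eGFP fusion, which adds a fluorescent tag to Araucan, and the tag was immunoprecipitated from sonicated chromatin of 200 to 800 bp. There was 1 group with 2 biological replicates, so no groups were compared and no test was made. Each replicate was whole embryos, in which weaker binding in every cell and binding in fewer cells cannot be told apart. The promoter and cells in which the fusion was made are not stated in the sources used here.

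The 26S proteasome is the large protease that degrades ubiquitin-tagged proteins in the cytoplasm and nucleus of every cell. Its core particle is a barrel of stacked rings, in which alpha subunits form the gate and the beta subunits Prosbeta1, Prosbeta2 and Prosbeta5 cut proteins. The regulatory particle caps the barrel: its base holds the Rpt ATPases, which unfold the substrate, and its lid holds the Rpn11 deubiquitinase and a scaffold of other Rpn subunits. Iroquois proteins are known for patterning the body wall, head and sensory organs of the fly, and proteasome genes are transcribed in nearly all its cells.

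The 48 genes divided into 25 of the core and 23 of the regulatory particle. Of these, 16 have symbols ending in R or T with or without a digit (such as Prosbeta5R2, Rpt3R and Prosalpha3T), which mark related copies of a subunit and, for T, copies made in the testis. They are called paralogs here, and the other 32 standard genes. Of the standard genes, 14 encode the core, 10 the base and 8 the lid. The genes lay on 5 chromosome arms, with 8 on 2L, 13 on 2R, 7 on 3L, 14 on 3R and 6 on X. They were short, with a median gene length of 1382 bp, against 2166 bp over all protein-coding genes. The core genes had a median length of 1201 bp and the regulatory particle genes 1686 bp.

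Peaks came from the authors' conservative list, which held 4706 peaks on the assembled arms with a median signal of 96.2 in the authors' own units. On the same arms the thresholded list of replicate 1 alone had 2396 peaks and that of replicate 2 alone had 4132. Both replicates' own lists held 44.9% of the conservative peaks, and neither list held 24.8% of them. A gene was called promoter-bound where the summit of a conservative peak, its highest point, lay within 500 bp of one of the gene's own transcription start sites (TSSs). A gene's locus ran from 5 kb before it to 5 kb past it. Signals of a single replicate come from that replicate's own list, so values were compared within a list.

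Araucan summits lay at 5 of the 48 proteasome promoters (10.4%), those of Rpn3, Rpt5, Rpn13, Rpn6 and Rpn11. The share over all protein-coding genes was 15.1%. All 5 were standard genes of the regulatory particle, at 5 of its 23 genes (21.7%), while none of the 25 core genes was promoter-bound. Among standard genes alone the counts were 0 of 14 in the core, 2 of 10 in the base and 3 of 8 in the lid, and no paralog was bound. The 5 signals were modest, with a median of 71.4 and a range of 62.4 to 209.6, against a median of 114.3 over all promoter-bound genes. Each of the 5 summits lay upstream of its gene's nearest TSS, and at 4 of them the TSS of another protein-coding gene lay within 250 bp.

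The DNA under these summits is shown for 3 of the bound promoters, because 2 of them show how little sequence separates the subunit gene from its neighbour, and Rpn11 stands alone. The sequences are from the RefSeq assembly genome (dm6) and are written in the direction of the subunit gene. They hold no transcribed base, and capitals mark matches to DREF TATCGATA, M1BP GGTCACACT, Ohler motif 7 CATCNCTA, E-box CAGCTG, Iroquois palindrome ACANNTGT or antioxidant response element TGACNNNGC on either strand. The Rpn3 sequence, chr2L:19051613-19051789 on the plus strand, is all 177 bases between Rpn3 and l(2)37Bb, with the summit at base 166. The Rpt5 sequence, chr3R:23752835-23752875 on the plus strand, is all 41 bases between Rpt5 and RanBP3, with the summit at base 37. The Rpn11 sequence, chr2L:5059888-5060187 on the minus strand, is 300 bases centred on the summit at base 151.
Rpn3: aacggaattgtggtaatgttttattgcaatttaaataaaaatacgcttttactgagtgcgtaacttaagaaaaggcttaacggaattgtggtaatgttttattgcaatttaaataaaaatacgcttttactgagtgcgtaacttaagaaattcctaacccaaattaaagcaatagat
Rpt5: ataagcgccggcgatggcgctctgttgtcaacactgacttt
Rpn11: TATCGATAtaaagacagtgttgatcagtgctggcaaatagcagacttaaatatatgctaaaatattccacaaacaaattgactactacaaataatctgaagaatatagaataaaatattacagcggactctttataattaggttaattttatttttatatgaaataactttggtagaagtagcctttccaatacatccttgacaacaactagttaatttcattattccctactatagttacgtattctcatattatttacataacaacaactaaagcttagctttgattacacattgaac
None of the searched motifs in capitals occurred in the Rpn3 or Rpt5 stretch, and the Rpn11 stretch opened with a DREF site. Rpn3 has DREF sites outside its stretch, which begin 197 bp upstream and 76 bp downstream of the TSS. A run of 72 bases occurred in identical form in the Rpn3 stretch, starting at base 1 and again at base 79. The GC content was 28.8% in the Rpn3 stretch, 53.7% in the Rpt5 stretch and 27.7% in the Rpn11 stretch.

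The promoters of 4 genes without a promoter summit are shown beside them, because they hold a DREF site upstream of the TSS. They were chosen after their values were seen. The site is not particular to genes without a summit. Within 500 bp on each side of the TSS it was in 4 of the 5 bound members. The Prosalpha6 sequence is chr2L:10221217-10221350 on the plus strand, the Prosbeta2 sequence chr3L:14999701-14999950 on the plus strand, the Prosbeta6 sequence chr3L:16610419-16610661 on the minus strand and the Rpn12 sequence chr3L:16582778-16583027 on the plus strand. Each ends at the base before the TSS.
Prosalpha6: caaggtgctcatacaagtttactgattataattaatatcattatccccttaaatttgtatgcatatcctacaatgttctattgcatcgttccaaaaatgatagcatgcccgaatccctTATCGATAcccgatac
Prosbeta2: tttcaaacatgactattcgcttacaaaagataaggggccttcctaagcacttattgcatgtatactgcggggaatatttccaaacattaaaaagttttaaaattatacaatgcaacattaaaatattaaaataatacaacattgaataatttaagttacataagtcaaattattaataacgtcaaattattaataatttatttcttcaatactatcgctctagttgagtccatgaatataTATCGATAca
Prosbeta6: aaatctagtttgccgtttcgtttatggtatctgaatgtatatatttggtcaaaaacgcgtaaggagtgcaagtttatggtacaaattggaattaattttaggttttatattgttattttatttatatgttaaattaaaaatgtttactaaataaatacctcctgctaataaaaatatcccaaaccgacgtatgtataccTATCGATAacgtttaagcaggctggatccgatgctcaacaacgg
Rpn12: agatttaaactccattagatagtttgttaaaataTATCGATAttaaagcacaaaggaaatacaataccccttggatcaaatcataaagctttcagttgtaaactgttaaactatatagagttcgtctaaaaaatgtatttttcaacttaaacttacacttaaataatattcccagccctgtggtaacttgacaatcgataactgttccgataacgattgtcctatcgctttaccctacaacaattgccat
The DREF site began 16 bp upstream of the TSS in Prosalpha6, 10 bp in Prosbeta2, 44 bp in Prosbeta6 and 216 bp in Rpn12. DREF is a factor known to bind this palindrome in the promoters of fly genes for replication and growth.

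Rpn3, a scaffold subunit of the lid, had the strongest proteasome promoter peak. Its signal was 209.6 in the conservative list, 84.4 in replicate 1 and 128.4 in replicate 2. The summit (2L, position 19051778) lay 12 bp upstream of the Rpn3 TSS and 166 bp from the TSS of l(2)37Bb on the other strand, in the AT-rich stretch with the repeat. The peak ranked 717 in the list, above 84.8% of its peaks and above the strongest promoter summit of 77.9% of promoter-bound genes. It was the single one of the 5 that stood in both replicates' own thresholded lists. The part of the repeated sequence in the signal was not tested.

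Rpt5, an ATPase of the base that helps open the gate of the core, came next. Its signal was 87.0 in the conservative list, 34.8 in replicate 1 and 58.0 in replicate 2. The summit (3R, position 23752871) lay 5 bp upstream of the Rpt5 TSS and 37 bp from that of RanBP3, so a 324 bp peak spans both start sites. The peak ranked 2712, above 42.4% of the list, and stood in replicate 2's own list but not in that of replicate 1. Of the 5 member summits this was the one with a DREF site within 50 bp, 37 bp upstream of the summit. That site runs across the RanBP3 TSS, so it lies outside the stretch printed above.

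Rpn6 and Rpn11 are lid subunits: Rpn6 clamps the regulatory particle to the core, and Rpn11 removes the ubiquitin chain before the substrate is drawn in. The Rpn6 peak had a signal of 68.6 in the conservative list, 26.4 in replicate 1 and 47.5 in replicate 2, and replicate 2's own list alone held it. Its summit (2R, position 14752385) lay inside the gene, 114 bp upstream of the nearer TSS and 136 bp from the TSS of ave. The Rpn11 peak had a signal of 62.4 in the conservative list, 41.0 in replicate 1 and 26.2 in replicate 2, and neither replicate's own list held it. Its summit (2L, position 5060037) lay 247 bp upstream of the TSS, and the next TSS, that of qtc, was 778 bp away. Rpn11 was thus the one bound member without a close neighbouring start site, and also the one with the weakest peak, above 12.3% of the list.

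Rpn13, a ubiquitin receptor of the base, had a signal of 71.4 in the conservative list and 40.9 in replicate 2. Replicate 1 had no peak with a summit matched to this one within 150 bp, and the strongest peak elsewhere in its promoter window had a signal of 35.2 there. The summit (2R, position 13960456) lay 52 bp upstream of the TSS and 219 bp from the TSS of CtsL1, the gene of a lysosomal protease. The other thresholded list of the series did not hold this peak, nor did either replicate's own list. Among the 4 promoter peaks matched in both replicates, Rpn3 was the highest in each, while Rpn11 came next in replicate 1 and was the lowest in replicate 2.

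**Figure D1:**
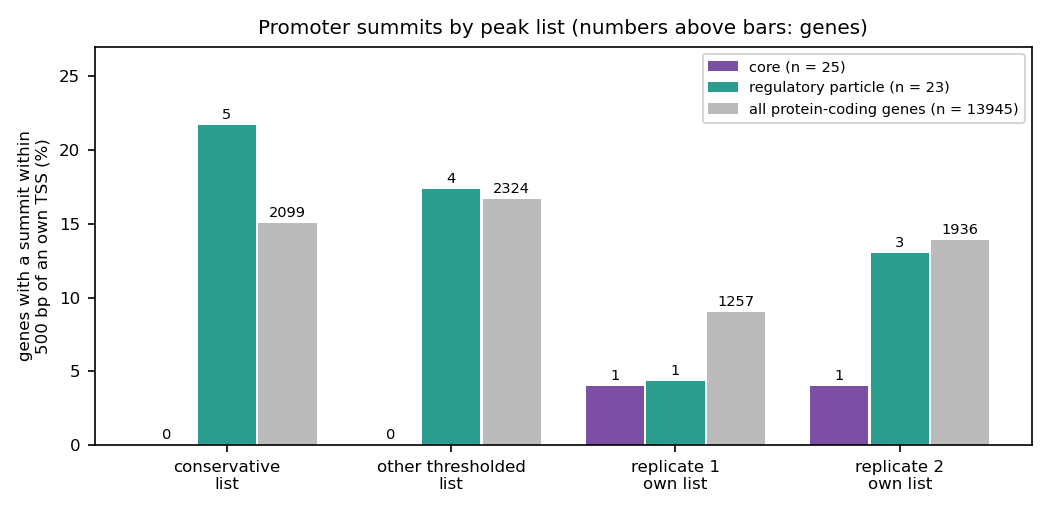
Share of genes with a summit within 500 bp of an own TSS (y axis, percent) in 4 peak lists, for 25 core genes, 23 regulatory particle genes and 13945 protein-coding genes. The number above each bar counts genes. The conservative list has 0 core and 5 regulatory particle genes, and each replicate's own list has 1 core gene.

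The count for the core was 0 in both thresholded lists of the series and 1 in each replicate's own list, as the bars of promoter shares show. The core gene was a different one in each replicate. Replicate 1's list held a peak of signal 34.3 at Prosbeta5R2, a paralog of a catalytic subunit, with its summit 496 bp downstream of the TSS, just inside the 500 bp limit. Replicate 2's list held a peak of signal 39.7 at Prosbeta2, the catalytic subunit itself, 34 bp upstream of the TSS. Replicate 1's list had 2 bound members in all, against 9.01% of all genes, and replicate 2's list had 4, against 13.9% of all genes. The other thresholded list had 4, all of them in the regulatory particle, against 16.7% of all genes.

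With peaks below the threshold of the conservative list counted too, most proteasome promoters had a listed peak. The series' full ranked list, which is not thresholded, held a promoter peak for 38 of the 48 genes (79.2%), against 82.3% of all genes. The core had 19 of 25 and the regulatory particle 19 of 23. Replicate 1's ranked list held one for 38 genes, against 77.2% of all genes, and replicate 2's also for 38, against 78.4%. Of the 48 members, 34 had a promoter peak in both replicates (70.8%), against 67.8% of all genes. Another 6 of the 48 had one in neither replicate, 5 of them core genes, against 1720 of all 13945 genes. Listed signals had a median of 31.2 in the core (range 11.4 to 45.8) and 40.6 in the regulatory particle (range 6.26 to 209.6), against 35.0 over all genes listed. With unlisted genes counted as 0, the medians were 26.1 in the core and 34.1 in the regulatory particle, against 30.1 over all genes.

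**Figure D2:**
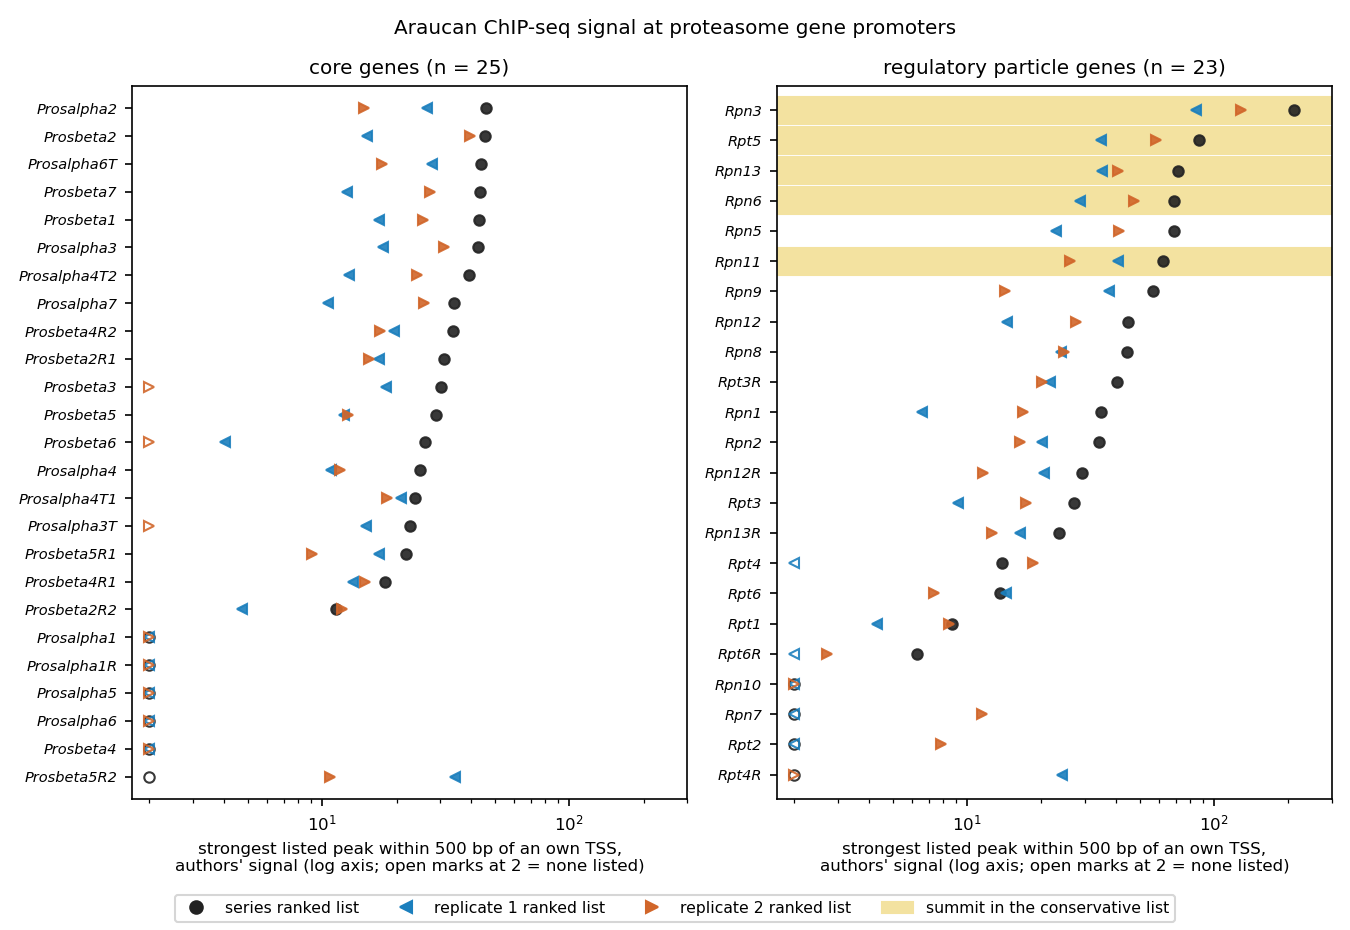
Strongest listed peak within 500 bp of an own TSS for each of 25 core genes (left) and 23 regulatory particle genes (right), in the authors' signal units on a log axis; circles give the series ranked list and triangles the ranked lists of replicates 1 and 2, with open marks where none was listed. Shaded rows have a conservative summit; core promoters reach 45.8 at most, and Rpn3 stands above all others at 209.6.

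The plot of promoter signal by gene shows that 7 of the 9 highest regulatory particle genes were lid genes. All 8 standard lid genes but Rpn7 were listed, at signals of 44.4 to 209.6 with a median of 62.4. The listed standard genes of the base had a median of 30.7. Rpn5, a scaffold subunit of the lid, was the highest member outside the conservative list, with a promoter signal of 68.6 in the series ranked list, 22.8 in replicate 1 and 41.4 in replicate 2. That signal was close to that of Rpn6, but its −log10 of the irreproducible discovery rate, a measure that is higher where a peak's rank repeats between replicates, was 1.55, and the lowest in the conservative list was 2.00. Rpn9, another lid scaffold subunit, followed at 56.3 in the series ranked list, with 37.6 in replicate 1 and 14.3 in replicate 2.

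The highest core promoter was that of Prosalpha2, a subunit of the alpha ring, with a signal of 45.8 in the series ranked list, 26.7 in replicate 1 and 14.7 in replicate 2. This value lay above the promoter value of 73.7% of all genes, and that of Prosbeta2, at 45.4, above 73.3%. The 2 replicates disagreed in order at these genes, since Prosbeta2 had 15.2 in replicate 1 and 39.7 in replicate 2. Paralogs had a median of 23.9 and a highest value of 43.8, at the testis copy Prosalpha6T, while standard genes had a median of 43.1. The promoters without any peak in the series ranked list were those of Prosalpha1, Prosalpha1R, Prosalpha5, Prosalpha6, Prosbeta4, Prosbeta5R2, Rpn10, Rpn7, Rpt2 and Rpt4R.

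Within 5 kb of the gene, 20 of the 48 members had a conservative summit (41.7%), against 43.7% of all protein-coding genes. The counts were 6 of 25 in the core (24%) and 14 of 23 in the regulatory particle (60.9%). Among standard genes, 5 of 14 in the core (35.7%), 7 of 10 in the base and 7 of 8 in the lid had one. The standard lid gene without was Rpn8. Over both particles, standard genes had 19 of 32 (59.4%) and paralogs 1 of 16 (6.25%), the 1 being Prosbeta2R2. Several start sites were annotated for 2 of the 25 core genes and 10 of the 23 regulatory particle genes, which were also longer, so that the windows searched were larger for the regulatory particle. In the replicates' own lists the locus counts were 13 members in replicate 1, against 28.6% of all genes, and 15 in replicate 2, against 40.4%, and the other thresholded list gave 21, against 47.6%.

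The distance of the nearest summit to a TSS differed in the same order. Its median was 16031 bp over the core and 4031 bp over the regulatory particle, against 8415 bp over all genes. Among standard genes it was 7661 bp in the core and 2789.5 bp in the regulatory particle. Paralogs lay farther off, with a median of 30107 bp, and 9 of the 16 had no summit within 20 kb of a TSS, against 26.4% of all genes. Prosbeta5R2 was the most distant of the members at 155059 bp, followed by Rpt4R at 103635 bp.

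In the conservative list no member lay near the 500 bp limit: the farthest inside was Rpn11 at 247 bp, and the nearest outside was Rpn2 at 1630 bp. The 5 kb limit passed between close values. Rpn7 was just inside, with a summit of signal 65.6 at 4996 bp from the gene. Prosalpha1R, at 5070 bp from a summit of signal 175.7, and Rpn1, at 5181 bp from one of signal 73.4, were just outside.

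**Figure D3:**
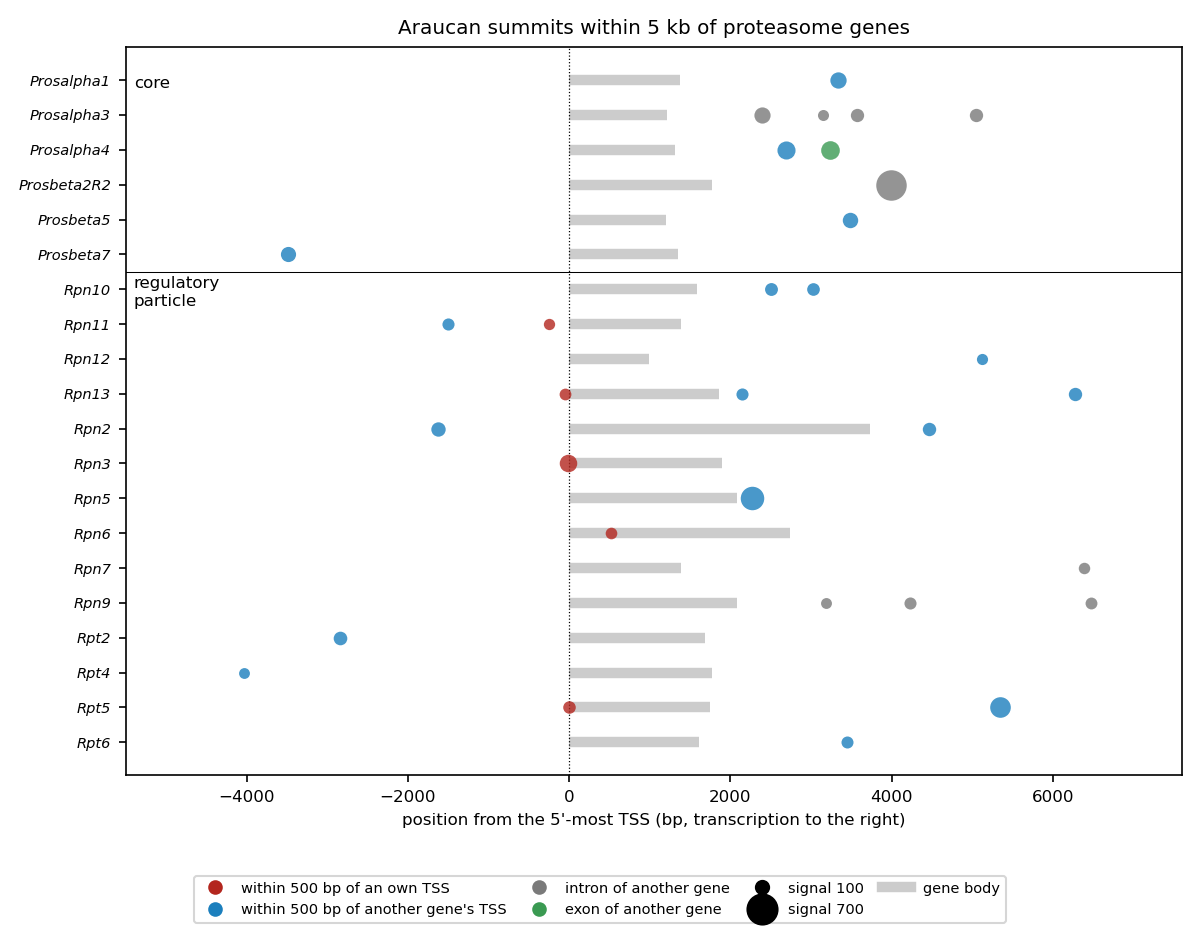
Conservative summits within 5 kb of a proteasome gene, by position from the gene's 5'-most TSS (x axis, bp, transcription to the right), with core genes above the line and regulatory particle genes below it. Gray bars are gene bodies, dot area grows with the authors' signal, and red dots mark the 5 summits within 500 bp of an own TSS; most other dots are blue, at the TSS of another gene.

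The 20 loci held 32 distinct summits, and the map of summits by gene shows that 27 of them were not at the member's promoter. Of these 27, 17 lay within 500 bp of another gene's TSS, 9 in an intron and 1 in an exon of another gene. In 26 of the 27 the nearest protein-coding TSS was that of another gene, the exception being the Rpn7 summit, in an intron of CG34376. The 27 leave out summits at own promoters by construction, and no such share was computed over all genes. Their signals ran from 54.1 to 722.1 with a median of 103.0, so they were on the whole higher than those of the 5 promoter summits. Both replicates' own lists held 11 of the 27, replicate 1's alone 2, replicate 2's alone 7 and neither list 7.

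In the core loci all 10 summits were of this kind, with a median signal of 163.1. The strongest was 722.1 near Prosbeta2R2, with 331.7 in replicate 1 and 388.4 in replicate 2, in an intron of cno, whose product links cell junctions to actin. Prosalpha4 had 2 summits at eas, the gene of an ethanolamine kinase, at 243.4 in an exon and at 226.3 in its promoter. Prosalpha1 had one of 175.7, 54 bp from the TSS of phr, a DNA photolyase gene, and this was the same summit that lay just outside the locus of Prosalpha1R. Prosalpha3 had 4 in introns of CG10543, at 173.3, 103.0, 102.4 and 57.5. Prosbeta5, the chymotrypsin-like subunit, had one of 152.8 at CG12325, and Prosbeta7 one of 146.6 at Cerk, the ceramide kinase gene. In each of these 6 core loci the summits were thus nearest to the TSS of another gene.

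In the regulatory particle loci the 17 summits away from the promoter had a median signal of 78.0. The highest was 411.7 near Rpn5, with 146.5 in replicate 1 and 272.2 in replicate 2, at 117 bp from the TSS of Hpf1 and 193 bp past the end of Rpn5. The second was 307.0 near Rpt5, with 109.9 in replicate 1 and 186.9 in replicate 2, at 126 bp from the TSS of PTPMT1, a mitochondrial phosphatase gene. It was stronger than the summit at the Rpt5 promoter itself. Rpn2, the large scaffold of the base, had one of 127.1 at eIF2D and one of 105.0 at rdog. Rpt2 had one of 109.7 at CG5854, and Rpn13 had one of 103.7 at CG33155 and one of 77.8 at AGO1. Rpn10, a ubiquitin receptor, had one of 93.7 at COX8 and one of 89.3 at VhaM9.7-b.

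The remaining 8 had signals of at most 78.0. Rpn9 had 3 in introns of CG10365, at 77.5, 73.3 and 55.2, and Rpn11 had one of 78.0 at qtc. Rpt6 had one of 76.1 at SLIRP1, Rpn7 one of 65.6, Rpn12 one of 59.7 at l(3)73Ah and Rpt4 one of 54.1 at CG15891. These were the only conservative summits in the loci of Rpn7, Rpn9, Rpn12, Rpt4 and Rpt6.

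**Figure D4:**
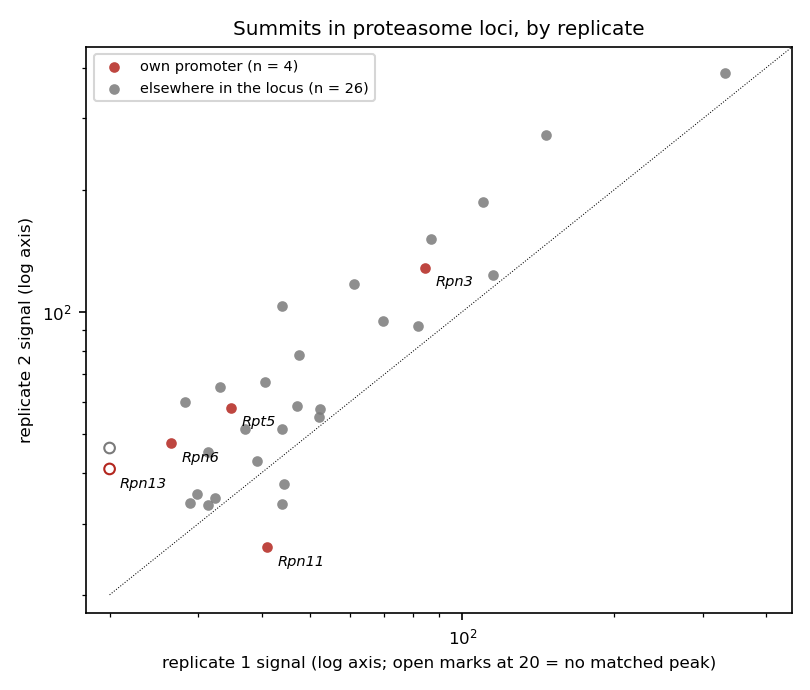
Replicate 1 signal (x axis) against replicate 2 signal (y axis), both on log axes in the authors' units, for the 32 distinct summits in proteasome loci; red points are own promoters, gray points lie elsewhere, and open marks had no matched peak in replicate 1. The dotted line marks equal values, each list has its own scale, and the summits near Prosbeta2R2 and Rpn5 are the farthest up and to the right.

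The plot of replicate 1 against replicate 2 covers these 32 summits, of which 30 were matched in both replicates and 2 in replicate 2 alone. The summits near Prosbeta2R2 and Rpn5 were the highest 2 in each replicate. The next was the one in the eas exon near Prosalpha4 in replicate 1, at 114.9, and the one near Rpt5 in replicate 2, at 186.9. Around the promoter summits of Rpn6 and Rpn11 the points were crowded together, and these 2 summits differed in order between the replicates. The promoter summit of Rpn13 had no matched peak in replicate 1.

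Many proteasome genes start close to a gene on the other strand. A divergent protein-coding TSS, on the other strand within 500 bp, was found at 20 of the 48 (41.7%), 11 of 25 in the core and 9 of 23 in the regulatory particle, against 26.4% of all genes. Of the 5 promoter-bound members 3 had one, against 47.3% of the 2099 promoter-bound genes. Rpn6 was not counted among the 3. Its summit lay 114 bp from an own TSS and 136 bp from that of ave, on the other strand. At a divergent pair the peak cannot be given to one of the genes.

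Motifs were counted by exact matches on either strand in the 300 bp from 250 bp before to 50 bp after the TSS. For these counts 1 TSS per gene was used, while binding was called at any own TSS. The window of a bound gene with several TSSs may therefore miss its summit. At Rpn6 and Rpn13 the TSS used was not the one nearest the summit. DREF TATCGATA was in 12 of the 48 proteasome promoters (25%), 6 in the core and 6 in the regulatory particle, against 8.94% of all promoters. It was in 11 standard genes and 1 paralog. Within 500 bp on each side it was in 15 (31.2%), against 11.9% of all genes, and in 4 of the 5 bound members, Rpn3, Rpt5, Rpn13 and Rpn11, against 16.1% of promoter-bound genes. M1BP GGTCACACT, another motif of promoters active in most cells, was in 6 (12.5%), against 5.87%, and Ohler motif 7 CATCNCTA in 5, all in the regulatory particle (10.4%), against 6.32%.

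In this 300 bp window E-box, GAGA factor and TATA box motifs were in smaller shares of proteasome promoters than of all promoters. E-box CAGCTG was in 2 (4.17%), against 17.9% of all promoters. GAGA factor GAGAG was in 9 (18.8%), against 30.2%, and TATA box TATAAA in 18 (37.5%), against 45.3%. Within 500 bp on each side the GAGA factor shares were nearly equal, at 66.7% of members, against 67.2% of all genes, while those of E-box were 27.1%, against 42.2%, and of TATA box 56.2%, against 74.1%. In the 300 bp window shares were closer for the remaining pair. The antioxidant response element TGACNNNGC, known as the site through which CncC raises proteasome genes under stress, was in 6 (12.5%), against 8.48%, and Zelda CAGGTA in 4 (8.33%), against 6.45%. Within 500 bp on each side they were 39.6%, against 27.2%, for the antioxidant response element and 25%, against 22.8%, for Zelda.

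**Figure D5:**
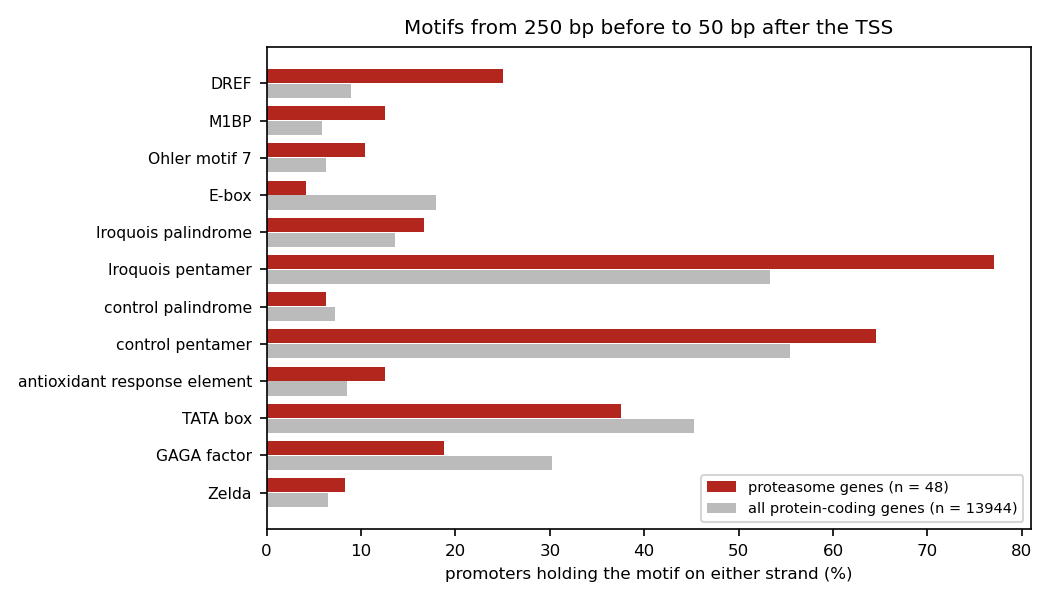
Share of promoters with each motif on either strand (x axis, percent) from 250 bp before to 50 bp after the TSS, for 48 proteasome genes (red) and 13944 protein-coding genes (gray). DREF is at 25% of proteasome promoters and 8.94% of all promoters, and E-box at 4.17% and 17.9%.

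Iroquois proteins are known to bind sites that contain ACA, alone or as a palindrome. The bars of motif shares put Iroquois palindrome ACANNTGT at 8 proteasome promoters (16.7%), against 13.6% of all promoters, and the control palindrome ACTNNAGT at 3 (6.25%), against 7.24%. The Iroquois pentamer TAACA was in 37 (77.1%), against 53.3%, and the control pentamer TACAA in 31 (64.6%), against 55.4%. Within 500 bp on each side the order of the pentamers turned round, with TAACA in 89.6% of members, against 86.8%, and TACAA in 97.9%, against 90.9%. Of the 8 palindromes, 5 were in core genes, none of which had a promoter summit in the conservative list. Within 50 bp of the 5 member summits the palindrome did not occur, and it occurred at 4.41% of the 1725 summits at all promoters. The pentamer occurred within 50 bp of 2 of the 5, those of Rpn3 and Rpn13, and at 25.9% of the 1725. The control pentamer occurred within 50 bp of 1 of the 5 and at 27.8% of the 1725.

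Other genes of the ubiquitin-proteasome pathway were set beside the subunits as a list of 27 symbols, of which 26 were matched in the annotation. Of these 26, 7 were promoter-bound (26.9%), against 15.1% of all genes, and 14 had a summit in the locus (53.8%), against 43.7%. The promoter share rests in part on summits close to the 500 bp limit, unlike that of the members. Those of Ubqn, Uba1 and Ubi-p63E lay 450, 488 and 495 bp from a TSS. With that of Pomp, they would fall outside a 250 bp window. Pomp, the chaperone that assembles the core, had the strongest promoter signal at 207.8, with 63.9 in replicate 1 and 136.7 in replicate 2, and stood in both replicates' own lists. Its summit lay 269 bp upstream of the TSS, and the nearest other protein-coding TSS was 6759 bp away. The Pomp signal was thus close to that of Rpn3, while no gene of the core that it helps to build was promoter-bound.

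The other 6 were weaker. They were Uba1, the ubiquitin-activating enzyme, at 79.5, Uch-L5, a deubiquitinase that docks on the proteasome, at 79.0, and Ubqn, a shuttle for ubiquitin-tagged proteins, at 74.8. Then came cnc, the gene of the CncC factor, at 66.9, Ubi-p63E, a polyubiquitin gene, at 65.1, and p47, a cofactor of the unfolding ATPase TER94, at 62.95. The last 3 and Ubqn stood in neither replicate's own list, Uba1 in that of replicate 2 alone and Uch-L5 in that of replicate 1 alone. At Ubi-p63E the TSS of Sc2, 187 bp away, was nearer to the summit than its own. The Uch-L5 summit lay 30 bp from its own TSS and 43 bp from that of Jarid2. Sem1, a further subunit of the lid, and the proteasome-bound factors REG, PI31 and Usp14 had no summit within 5 kb.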

How the data were processed

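Chromatin immunoprecipitation sequencing (ChIP-seq) was done in 2 biological replicates of ara-eGFP embryos, and coordinates are on dm6, per the labels. The authors deposited peak lists with a signal for each peak, in units whose scaling the labels do not state. The aligner and the peak caller, like the depth, were not given in the sources used here, so no counting interval could be given. The deposited score was at least 830 in the conservative list. The deposited −log10 values were taken as those of the global irreproducible discovery rate. Control libraries were not used here.

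Summits were used as 1-based positions. Genes and TSSs came from Ensembl release 115 (BDGP6.54), whose start codons read as ATG in the dm6 RefSeq sequence at 30540 of 30593 sites. Replicate values come from each replicate's own ranked list, at the mutually nearest summit within 150 bp. At the promoter they are the strongest listed peak within 500 bp.

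The members, gene lists and motifs were chosen with earlier results of these data known. Named are members with a promoter or locus summit, the 3 highest members without a promoter summit, the gene with the nearest other TSS, pathway genes with a promoter summit, and members beside the distance limits. Any further name, and the 20 kb distance, was chosen after values were seen. Hrd1 was matched as sip3, and Ecm29 was not matched. Counting was tested on simulated data with planted summits. The tools were pandas 2.3.3 and numpy 2.4.6 under Python 3.11.15, and matplotlib 3.10.9 for plots. Alternatives were other lists, the peaks above the list's median signal, other windows and flanks, peak intervals in place of summits, other choices of TSS, and each replicate alone.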

Additional observations from a re-analysis of the deposited data

How the results depend on the processing

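No paired analysis was possible because the labels give 1 group. The promoter counts of 5 members, 0 in the core and 5 in the regulatory particle, were the same with windows of 250 bp and 1000 bp, with peak intervals in place of summits, and when the nearest coding TSS had to be the member's. They were 4, 0 and 4 in the other thresholded list and with the 5'-most TSS alone. With the peaks above the median signal alone they were 1, 0 and 1. With each replicate alone they were 2 to 4 members, 1 in the core either way and 1 to 3 in the regulatory particle. The locus count of 20 was 12 with the stronger peaks, 13 with 2 kb flanks, 26 with 10 kb flanks and 13 to 15 with each replicate alone. The median promoter signal of 71.4 was 52.7 to 59.4 with each replicate alone, on the replicates' own scales. Of 24 motif counts in other windows, 20 moved by over 1.5 times. The windows differ in length by construction, and those at the summit cover the 5 bound members alone instead of all 48. With 5 bound members, 1 peak moves any share by much, and the depth behind each signal is unknown.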
